A study of Mus musculus with 25 samples.

Results

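The comparison described here is that of liver RNA from Ncoa5+/- mice given metformin with liver RNA from Ncoa5+/- mice given none, all aged 39 weeks. It takes 10 of the 25 libraries of the series, 5 treated and 5 untreated, chosen by their labelled genotype, age and treatment. The 17 livers of that age also include 4 untreated and 3 treated wild type mice, which were used to ask whether a difference was particular to Ncoa5+/- mice, and which share the filter and the estimate of the spread between mice with the Ncoa5+/- groups. All were C57BL/6 mice on a standard rodent diet without restriction, and both Ncoa5+/- groups carry the same heterozygous Ncoa5 allele. Treated mice drank metformin at a dose of 250 mg/kg per day, begun when they were 8 weeks old and kept up for 31 weeks, and untreated mice received no drug. RNA came from whole frozen liver, so every value mixes hepatocytes with the other cells of the organ. The labels do not state the sex, litter, cage, fasting state or hour of death of a mouse, nor which part of Ncoa5 is removed. Mice are numbered 1 to 5 in each group in order of deposit, and these numbers pair nothing.

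Metformin is an oral biguanide that lowers blood glucose in type 2 diabetes. In hepatocytes it slows complex I of the respiratory chain, and can thereby activate AMPK, the kinase that senses low energy charge and restrains fat synthesis. Ncoa5 encodes a coregulator of nuclear receptors, and heterozygous mice are studied as a model of glucose intolerance and liver cancer. The series title names p21, the cyclin-dependent kinase inhibitor encoded by Cdkn1a and induced by p53, and describes metformin as reversing a liver state with p21-bearing hepatocytes. In the fasting or fat-loaded liver the nuclear receptor PPAR-alpha switches on mitochondrial and peroxisomal fatty acid oxidation and ketone body synthesis, while SREBP-1c, encoded by Srebf1, drives fatty acid synthesis after feeding.

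Values are FPKM, fragments scaled by transcript length and by the mapped fragments of the library, so levels of different genes are on a scale per length. Read counts were not used here, so depth is unknown and precision is read from the spread between mice alone. Summed over loci, the 10 libraries held 857291 to 2089981 FPKM, and the 50 highest loci took 43.1% to 78.3% of the sum, most in untreated mouse 3 and next in treated mouse 5 (72.5%). Ncoa5 (chr2:165000275-165034867, GRCm38.p5) stood at 4.42, 3.58, 2.63, 3.67 and 4.31 FPKM in the untreated and 3.32, 3.87, 3.88, 3.07 and 3.63 FPKM in the treated mice. The ranges overlapped (log2 difference -0.04, two-sided exact permutation p = 0.746), and an expression value over the whole locus cannot check a genotype whose deleted part is not described. The Y-linked gene Ddx3y was between 11.9 and 16.1 FPKM in all 10 livers. Xist, the X-inactivation RNA of females, was at most 0.00438 FPKM in untreated and 0.00524 FPKM in treated livers, so all 10 read as male. Loci with a difference towards treated mice and an unadjusted p under 0.05 had a median transcript GC content of 44.4%, those towards untreated mice 55.9%, and all tested loci 49.6%. Rn18s-rs5, a locus of ribosomal RNA sequence, stood at 92.2, 138, 251, 131 and 91.5 FPKM in the untreated and 35.0, 46.6, 35.8, 57.9 and 144 FPKM in the treated livers. Over 10379 loci the Spearman correlation of log2 fold change with GC content was -0.39 in Ncoa5+/- and -0.12 in wild type livers. A GC correction was fitted to the same 10379 loci, and its values are given below for only some genes and lists. Several counts of list members under an unadjusted p of 0.05 changed with it. Beyond that correction, the part of GC content and of ribosomal RNA carry-over was not tested, also in the differences between the genotypes.

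No locus passed the test across the genome. Of 11441 loci tested with limma on log2(FPKM + 1), 0 had a Benjamini-Hochberg adjusted p under 0.05 (0%), and the smallest adjusted p was 0.166, or 0.462 when the wild type livers were left out of the fit. At an unadjusted p under 0.05 there were 1010 loci (8.83%), 452 of them higher (3.95%) and 558 lower (4.88%) in treated livers. The authors' deposited table marks 173 of 14159 loci (1.22%) as significant for the same 2 groups. The split between higher and lower depended on scaling: quantile normalization gave 622 higher and 502 lower, a median shift of each library 590 and 455, and a GC correction 324 (3.12%) and 328 (3.16%), together 652 (6.28%). Over all tested loci 50% of log2 fold changes were positive and 49.8% negative, and 180 loci (1.57%) had treated and untreated values that did not overlap, 92 higher (0.804%) and 88 lower (0.769%). These shares are the background for the counts given with each gene group. In whole liver, fewer cells of a type and less RNA per cell cannot be told apart. Log2 fold changes are treated over untreated on the log2(FPKM + 1) scale, which understates the difference of low genes, and ± is the standard error.

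The smallest adjusted p belonged to Evi5, which encodes a GTPase-activating protein of vesicle traffic and cell division. Evi5 stood at 21, 23.3, 26.3, 24.8 and 23.6 FPKM in untreated and 32.6, 31.3, 36.9, 32.9 and 29.4 FPKM in treated livers (log2 fold change 0.44 ± 0.07, limma adjusted p = 0.166). Every treated value lay above every untreated one, and the wild type livers differed by 0.38. Tmem56 stood at 32.7, 23.1, 34.3, 30.9 and 25.4 FPKM against 40.6, 46.9, 47.2, 38.3 and 49.9 FPKM with metformin (0.60 ± 0.11, limma adjusted p = 0.318), again without overlap. Its wild type difference was 0.08. The interaction, which is the Ncoa5+/- difference minus the wild type one, was estimated over all 17 livers at 0.52 ± 0.17 (limma adjusted p = 0.991). A different response of the genotypes is thus not shown. Mrpl32, a protein of the large mitochondrial ribosome subunit, was at 26.2, 25.7, 24.9, 26.9 and 24.9 FPKM in untreated and 29, 32, 32.9, 28.8 and 30.4 FPKM in treated livers (0.24 ± 0.05), and no values overlapped. Snrpe, a core protein of the spliceosome, was 0.21 higher on the log2 scale, also without overlap. The other loci with the smallest p among the higher ones were Hadhb, Ephx2, Rec8, Lcorl (0.93 ± 0.24), Nxpe2 (0.73 ± 0.19) and Cyp3a11, each at an adjusted p of 0.387.

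The loci with the smallest p among those lower in treated livers included Mus81, Tomm40 and Prkab1. Mus81, the endonuclease that resolves stalled replication forks, stood at 11.9, 13.8, 11.3, 10.9 and 12.1 FPKM in untreated and 7.11, 9.47, 8.01, 8.75 and 8.14 FPKM in treated livers (log2 fold change -0.49 ± 0.10). The treated values all lay below the untreated ones, the wild type difference was -0.11 and the interaction was -0.37 ± 0.16 (limma adjusted p = 0.991). Tomm40, the channel of the mitochondrial outer membrane through which proteins are imported, was at 28.4, 32, 24.8, 29.4 and 32.8 FPKM against 22.2, 22.8, 23.5, 22.5 and 23.2 FPKM with metformin (-0.35 ± 0.07), with a wild type difference of -0.27. The treated livers spanned a narrow range below all untreated ones. Prkab1, the beta-1 subunit of AMPK, was at 18.1, 18.6, 15.3, 16.3 and 15.7 FPKM in untreated and 12.6, 12.6, 14, 13.3 and 11.6 FPKM in treated livers (-0.36 ± 0.08), without overlap. Prkab1 differed by -0.07 in wild type livers, an interaction of -0.29 ± 0.13 (limma adjusted p = 0.991). Dexi (-0.54 ± 0.12), Plxnb1, a semaphorin receptor (-0.56 ± 0.13), Tnrc18 (-0.50 ± 0.12), Tmem200b (-0.40 ± 0.09) and Sympk, a scaffold of mRNA 3′ end processing (-0.33 ± 0.08), also had no overlap, while Parp16 and Ninj1 overlapped. All 10 of these lower loci had an adjusted p of 0.387.

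Cdkn1a was the gene on which the series title turns, and its levels with and without metformin overlapped. Cdkn1a (chr17:29090979-29100722) stood at 117, 17.7, 15, 18.3 and 33.5 FPKM in the untreated and 24.5, 15, 14.4, 11.3 and 25.7 FPKM in the treated Ncoa5+/- livers. Untreated mouse 1 was far above the rest, and 3 of the other untreated values lay within the treated range. The difference on the log2 scale was -0.70 ± 0.42 (limma adjusted p = 0.654). An exact permutation over all ways of dividing the 10 livers gave a two-sided p of 0.302, where 0.00794 is the smallest this design allows. In wild type livers Cdkn1a was at 1.28, 2.68, 1.71 and 1.56 FPKM without and 1.06, 0.684 and 0.673 FPKM with metformin, a log2 difference of -0.62 and an interaction of -0.08 ± 0.66. The authors' deposited table gives a log2 fold change of -1.11 for Cdkn1a with a q-value of 0.00668. The ratio of mean FPKM + 1 without untreated mouse 1 was -0.21 on the log2 scale.

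Other p53 targets were high in the same untreated mouse. Phlda3, a p53-induced inhibitor of Akt, stood at 45.1, 7.67, 8.23, 9.97 and 14.6 FPKM in untreated and 15.9, 10.2, 7.42, 5.45 and 9.78 FPKM in treated livers (-0.50 ± 0.37). Ccng1, cyclin G1, was at 45.5, 15.4, 18.5, 21.4 and 28 FPKM and 26.5, 22.6, 20.1, 17.9 and 22.1 FPKM (-0.14 ± 0.21), and the difference turned to 0.08 without untreated mouse 1. Eda2r, a death receptor of the TNF family, was at 6.24, 1.62, 2.26, 2.07 and 2.36 FPKM and 3.2, 2.54, 2.48, 1.8 and 2.77 FPKM. Mdm2, the ligase that degrades p53, was at 22.1, 14.3, 15, 13.3 and 13.6 FPKM and 18, 14.5, 16.7, 12.1 and 13.6 FPKM. In each of these genes untreated mouse 1 was the highest of the 10 livers and the other 9 overlapped. Bax, which permeabilizes mitochondria in apoptosis, was also highest in untreated mouse 1, by a smaller margin, and the other 9 livers overlapped. It stood at 80.6, 69.1, 66.3, 73.8 and 60.3 FPKM in untreated and 73.6, 55.9, 60.4, 55.4 and 53.1 FPKM in treated livers (-0.23 ± 0.10, limma adjusted p = 0.542). Its highest treated value was in treated mouse 1, and with the GC correction the difference was -0.11. Gdf15, a stress hormone, was at 13.8, 7.3, 11, 6.16 and 10.3 FPKM and 12, 5.8, 5.93, 5.44 and 2.8 FPKM (-0.60 ± 0.35), and Trp53 itself differed by -0.13 ± 0.08.

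Of 29 listed p53 targets and regulators 26 were tested, and 19 had negative and 7 positive differences, with a median of -0.09 where all loci had a median of 0.00. At an unadjusted p under 0.05, 1 was lower (Bax) and 0 were higher, and with the GC correction 0 were lower and 0 higher. Without untreated mouse 1 the list had 15 positive and 11 negative members and a median of 0.05, and without treated mouse 4 a median of -0.04. In untreated mouse 1 the T, NK and B lymphocyte markers averaged 2.86 on the log2(FPKM + 1) scale over the 4 tested of 20 listed genes. The other untreated livers had 1.19 to 1.60 and the treated livers 0.95 to 2.28. The part of these markers in the p53 values of untreated mouse 1 was not tested. The genes whose levels followed Cdkn1a most closely over the 10 livers, out of 9621 compared, were Ddit4l (Pearson r = 0.963, Spearman rho = 0.867), Phlda3 (0.960, 0.830), Atp8b5 (0.958, 0.842), Aaas (0.923, 0.733) and Polk (0.914, 0.842). Without the 2 livers farthest from the Cdkn1a median the r values were 0.720, 0.788, 0.727, 0.587 and 0.629, and all 10 livers share the same library set and scaling. Ccnd1 and the other 14 tested G1 cyclins, kinases and inhibitors held 8 positive and 7 negative members, with Cdk2 (0.22 ± 0.09) higher at an unadjusted p under 0.05.

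**Figure D1:**
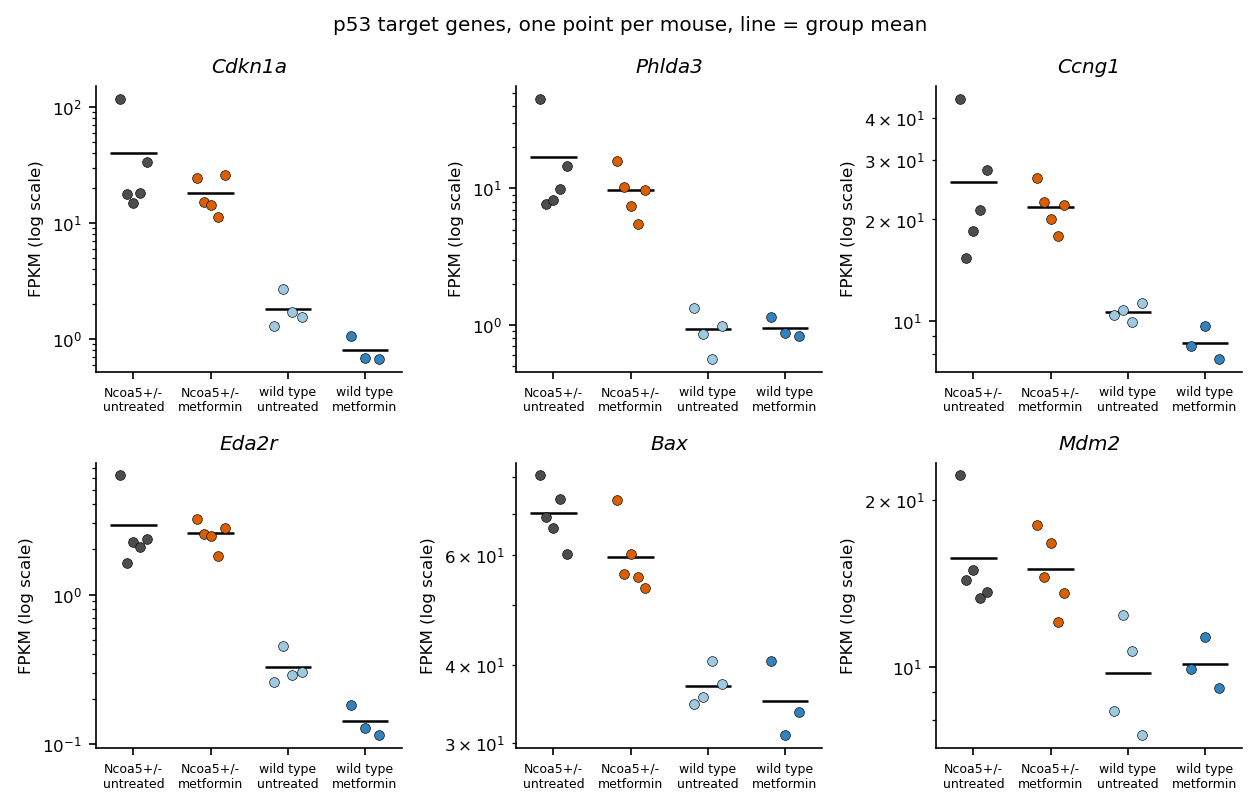
FPKM on a log scale of Cdkn1a, Phlda3, Ccng1, Eda2r, Bax and Mdm2, 1 point per mouse in the 4 groups aged 39 weeks, with a line at the group mean. Untreated Ncoa5+/- mouse 1 reaches 117 FPKM of Cdkn1a and the other 4 untreated mice lie between 15.0 and 33.5, beside 11.3 to 25.7 in the 5 treated mice.

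Fatty acid oxidation genes were higher on average in treated livers, though not in every liver. All 23 tested of 24 listed PPAR-alpha and fatty acid oxidation genes had a positive log2 fold change with metformin, with a median of 0.19. Of these, 11 were higher at an unadjusted p under 0.05 and 0 were lower, against 3.95% and 4.88% of all loci, and none passed after adjustment over all loci. Hadhb and Decr1 did not overlap between the groups. With the GC correction 11 were higher and the median was 0.20, and without the wild type livers in the fit 8 were higher. Leaving out single mice gave 6 to 12 higher, the fewest without untreated mouse 5 or treated mouse 3. With array weights 22 of the 23 genes were positive, and 21 without the libraries whose 50 highest loci take over 70%. The list mean on the log2(FPKM + 1) scale was 6.17 to 6.51 in untreated livers. Treated mouse 1, at 6.30, lay in that range, and the other treated livers had 6.54 to 6.83. Among wild type livers 11 of the 23 were positive and 12 negative, where all loci had 47.1% and 52.4% (median -0.00), with 2 higher at an unadjusted p under 0.05. The interaction with genotype had an unadjusted p under 0.05 for 2 of them, with Decr1 among these, where all loci had 2.79%.

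Hadhb, the thiolase subunit of the mitochondrial trifunctional protein, stood at 77.9, 86.4, 78.7, 81.5 and 77.3 FPKM in untreated and 93, 98.8, 112, 90.6 and 104 FPKM in treated Ncoa5+/- livers (log2 fold change 0.31 ± 0.06, limma adjusted p = 0.387). The lowest treated liver was above the highest untreated one. Its partner subunit Hadha differed by 0.19 ± 0.07. Decr1, a reductase needed for unsaturated fatty acids, was at 68.5, 57.2, 63.5, 69.4 and 54.7 FPKM and 71, 72.6, 77.9, 73.3 and 79.1 FPKM (0.26 ± 0.07), again without overlap. Decr1 differed by -0.05 in wild type livers, an interaction of 0.31 ± 0.11 (limma adjusted p = 0.991). Slc25a20, which carries acylcarnitines into mitochondria, differed by 0.30 ± 0.11, Acadl and Acadvl, which start the oxidation of long chains, by 0.19 ± 0.07 and 0.15 ± 0.07, and Cpt2, which frees the chain from carnitine inside, by 0.16 ± 0.07. Cpt1a, the entry step, was at 113, 124, 101, 98.4 and 83.1 FPKM and 124, 103, 121, 103 and 141 FPKM (0.19 ± 0.13), with overlapping ranges. Ppara itself was at 58, 39.8, 57.1, 57.1 and 47.8 FPKM and 56.2, 51.8, 60, 63.1 and 58.7 FPKM (0.17 ± 0.10).

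Fgf21, the fasting hormone made by hepatocytes under PPAR-alpha, was the most uneven member. It stood at 1.43, 2.12, 2.06, 3.24 and 0.676 FPKM in untreated and 2.93, 23.2, 16, 2.3 and 2.24 FPKM in treated Ncoa5+/- livers (1.34 ± 0.54). Treated mice 2 and 3 were far above all others, and treated mice 1, 4 and 5 lay inside the untreated range. In the wild type the Fgf21 difference was 1.5. Vnn1, a pantetheinase that responds to PPAR-alpha, differed by 0.69 ± 0.30. Slc22a5, which brings carnitine into cells, was at 11.1, 6.91, 9.71, 8.85 and 6.12 FPKM and 11.3, 12.5, 14.8, 11.3 and 12.5 FPKM (0.52 ± 0.15, limma adjusted p = 0.388). The treated livers all exceeded the untreated ones, although the nearest values lay close together. Crat, the carnitine acetyltransferase, was at 30.1, 19.7, 25.6, 42.9 and 20.4 FPKM and 31.4, 53.7, 57.6, 35.2 and 47.9 FPKM (0.70 ± 0.26). Ephx2, the soluble epoxide hydrolase of cytosol and peroxisomes, was at 300.1, 287, 293, 295 and 223 FPKM in untreated and 347, 369, 415, 323 and 329 FPKM in treated livers (0.35 ± 0.09), without overlap, and differed by 0.27 in wild type livers.

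**Figure D2:**
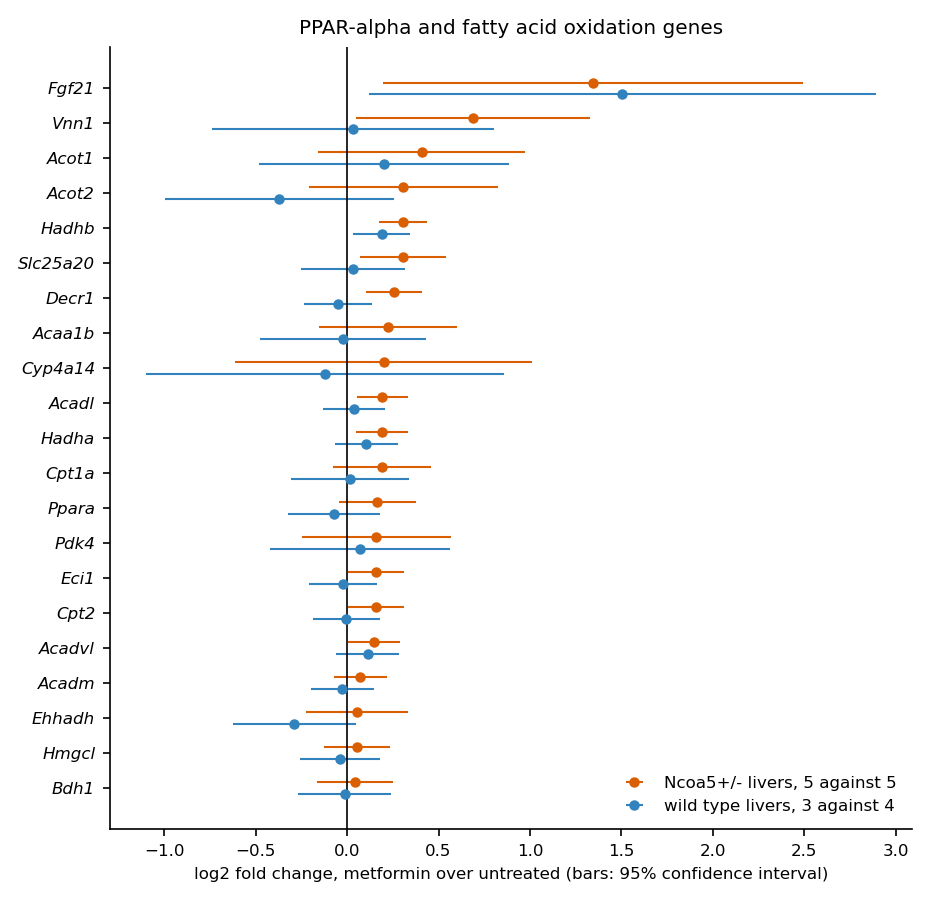
Log2 fold change, metformin over untreated, of 21 of the 23 tested PPAR-alpha and fatty acid oxidation genes, with 95% confidence intervals, in Ncoa5+/- and wild type livers. All 21 points for Ncoa5+/- lie above 0, and those for wild type livers lie on both sides of 0, 10 positive and 11 negative.

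Genes of fat synthesis and storage went in both directions. Srebf1, the SREBP-1c gene, stood at 212, 135, 105, 241 and 123 FPKM in untreated and 78.2, 85.8, 74.3, 139 and 77.4 FPKM in treated livers (log2 fold change -0.80 ± 0.24, limma adjusted p = 0.402). Only treated mouse 4 reached into the untreated range, and wild type livers differed by -0.74. Dgat2, which makes triglyceride, was at 442, 400.0, 345, 417 and 350.0 FPKM and 298, 294, 308, 354 and 277 FPKM (-0.35 ± 0.10), and by -0.29 in wild type livers. The highest treated Dgat2 value lay just above the lowest untreated ones. Plin2, the coat protein of lipid droplets, was at 259.7, 228, 329, 278 and 217 FPKM in untreated and 272, 317, 385, 411 and 631 FPKM in treated livers (0.57 ± 0.20). Treated mouse 5 was highest, and in wild type livers Plin2 differed by -0.25, an interaction of 0.82 ± 0.32 (limma adjusted p = 0.991). Me1, the malic enzyme that supplies NADPH for fat synthesis, differed by 0.65 ± 0.26, and Pparg by 0.51 ± 0.22. Cidec, which enlarges lipid droplets, was at 6.75, 5.93, 7.26, 12.9 and 2.72 FPKM and 4.2, 31.1, 17.9, 14.8 and 25.2 FPKM (1.16 ± 0.57). In all, 24 of 26 listed lipogenesis and lipid droplet genes were tested, 12 positive and 12 negative, with 3 higher and 2 lower at an unadjusted p under 0.05 and a median of 0.05. With the GC correction 5 were higher and 2 lower. The wild type median was -0.17, with 8 positive and 16 negative members.

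**Figure D3:**
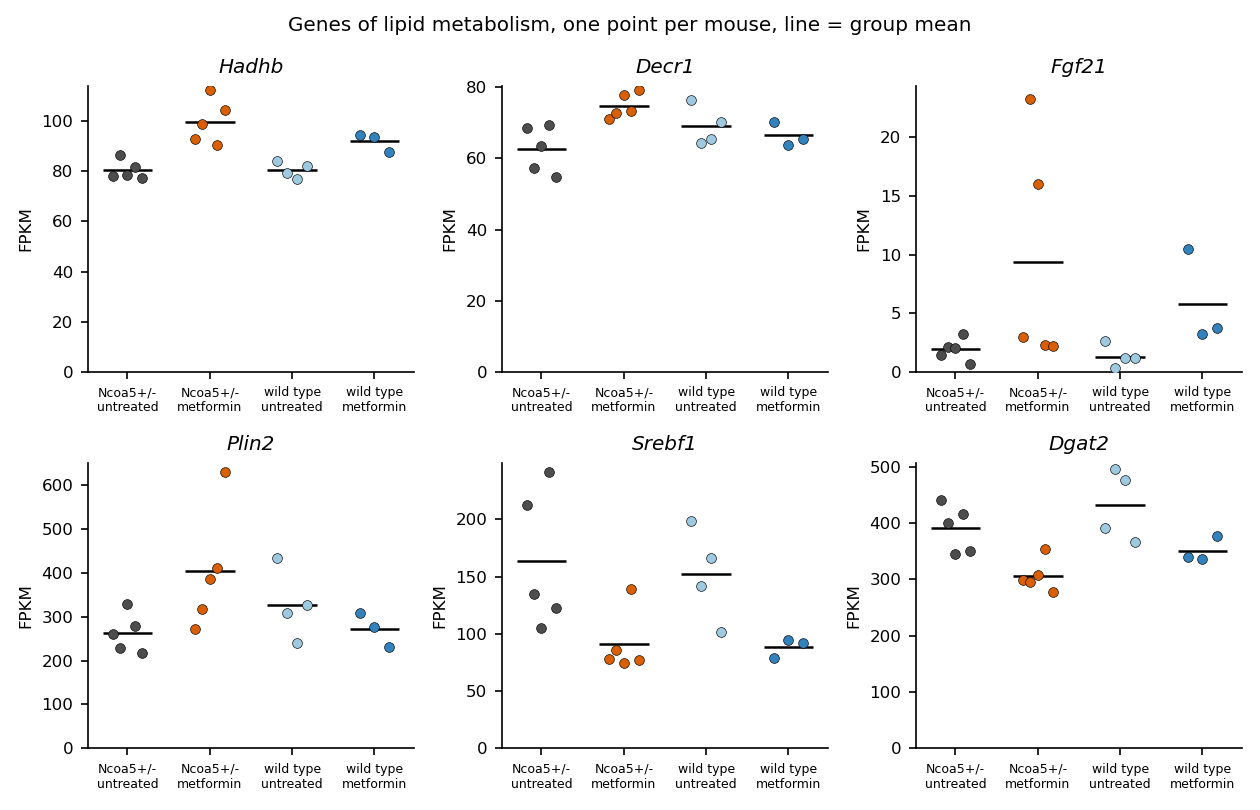
FPKM on a linear scale from 0 of Hadhb, Decr1, Fgf21, Plin2, Srebf1 and Dgat2, 1 point per mouse in the 4 groups aged 39 weeks, with a line at the group mean. The 5 treated Ncoa5+/- livers lie above the 5 untreated ones for Hadhb and Decr1, while for Srebf1 treated mouse 4, at 139 FPKM, lies among the untreated livers.

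Bile acid genes were higher more often than lower, as in wild type livers. Cyp27a1, which starts the acidic route of bile acid synthesis, stood at 257, 259.8, 276, 298 and 258 FPKM in untreated and 324, 333, 377, 309 and 275 FPKM in treated Ncoa5+/- livers (0.26 ± 0.08), and treated mouse 5 alone lay inside the untreated range. The wild type difference was 0.32. Abcb4, the phospholipid flippase of bile (0.31 ± 0.10), and the uptake transporters Slco1b2 (0.44 ± 0.16) and Slco1a1 (0.48 ± 0.19) were also higher at an unadjusted p under 0.05. Fgfr4, the receptor through which the gut hormone FGF15 represses bile acid synthesis, was lower (-0.25 ± 0.11). Of 20 tested bile acid genes 14 were positive and 6 negative, with a median of 0.13, and wild type livers also had 14 and 6, with a median of 0.11. With the GC correction 5 were higher and 0 lower in Ncoa5+/- livers at an unadjusted p under 0.05. The 21 tested cholesterol synthesis and SREBP2 target genes had 8 positive and 13 negative members (median -0.08, and 0.07 without untreated mouse 5), and 0 lay under an unadjusted p of 0.05 in either direction.

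Amino acid breakdown genes and periportal genes, which share members, were lower on balance. Of 32 tested genes of the urea cycle and amino acid catabolism 28 were negative (median -0.17), and 5 were lower and 0 higher at an unadjusted p under 0.05, against 4.88% and 3.95% of all loci. In wild type livers 25 of the 32 were negative (median -0.12), with 3 lower. The interaction had an unadjusted p under 0.05 for 0 of them. Gpt, the alanine transaminase, stood at 219.6, 237, 191, 197 and 209 FPKM in untreated and 171, 129, 151, 205 and 154 FPKM in treated livers (-0.39 ± 0.10, limma adjusted p = 0.387). Treated mouse 4 alone lay within the untreated range, and wild type livers differed by -0.41. Gls2, the liver glutaminase, was at 286, 477, 268, 292 and 286 FPKM and 238, 146, 151, 279 and 209 FPKM (-0.66 ± 0.18). Sds, serine dehydratase, was at 120.0, 343, 119, 128 and 178 FPKM and 126, 75.2, 59.6, 134 and 62.8 FPKM (-0.90 ± 0.29), and differed by -0.03 in wild type livers, an interaction of -0.87 ± 0.46 (limma adjusted p = 0.991). In both genes untreated mouse 2 was the highest liver. Uroc1, of histidine breakdown, differed by -0.30 ± 0.12. The number lower ranged from 3 to 14 when single mice were left out, 3 without untreated mouse 2, treated mouse 2 or treated mouse 3, and 14 without treated mouse 4.

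The 16 periportal genes, expressed where portal blood enters the lobule, had 15 negative members and a median of -0.25, with 4 lower at an unadjusted p under 0.05: Sds, Gls2, Igfals and Aldh1b1. With the GC correction 3 were lower. Aldh1b1, a mitochondrial aldehyde dehydrogenase, stood at 43.3, 97.7, 44.4, 29.1 and 44.2 FPKM in untreated and 23.7, 18, 20.4, 34.7 and 33.1 FPKM in treated livers (-0.89 ± 0.29), and untreated mouse 2 was highest again. The mean level of the list was 7.26 on the log2(FPKM + 1) scale in untreated mouse 2, 6.48 to 6.70 in the other untreated and 6.17 to 6.64 in the treated livers. Without untreated mouse 2 the median was -0.12, with 14 negative and 3 lower. Pericentral genes, expressed around the draining vein, had 10 positive and 8 negative members (median 0.03). In wild type livers 13 of 16 periportal genes were negative, with a median of -0.08.

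Few genes through which metformin is taken up and sensed could be tested, and 0 passed the adjusted threshold. Of 10 listed organic cation transporters 4 were tested. Slc22a5, the carnitine carrier described above, was the 1 higher at an unadjusted p under 0.05 (25%, against 3.95% of all loci). Of 8 tested AMPK subunits and upstream kinases 1 was higher (12.5%) and 2 were lower (25%) at that level, against 3.95% and 4.88% of all loci. Prkaa2, the alpha-2 catalytic subunit, was higher (0.35 ± 0.14), and Prkab1 (above) and the gamma-1 subunit Prkag1 (-0.15 ± 0.06) were lower. With the GC correction 1 of the 8 was higher and 1 lower. Messenger RNA levels say nothing of the phosphorylation that activates AMPK. Pck1, the committed enzyme of glucose synthesis, was at 841, 1677, 1026, 803 and 539 FPKM and 1169.8, 564, 857, 1263 and 341 FPKM (-0.27 ± 0.40). G6pc, which releases glucose, was at 263, 111, 178, 208 and 77.1 FPKM and 187, 137, 255, 229 and 179 FPKM (0.33 ± 0.41). Pck1 spanned several fold within each group, and so did G6pc in untreated livers, while treated livers had 137 to 255 FPKM of G6pc. Gpd1, the cytosolic glycerol phosphate dehydrogenase, was at 167, 125, 218, 252.1 and 173 FPKM and 192, 300.5, 273, 244 and 236 FPKM (0.44 ± 0.17), the 1 of 17 tested glucose output genes under an unadjusted p of 0.05. The group had 10 positive and 7 negative members.

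Insulin signalling, glycolysis and respiratory chain genes had few members under an unadjusted p of 0.05. Akt2, the main insulin-stimulated kinase of liver, stood at 47.4, 55.4, 54.2, 56.2 and 56.3 FPKM in untreated and 49.9, 43.1, 44.3, 49.3 and 42.7 FPKM in treated livers (-0.23 ± 0.07). Untreated mouse 1 was its lowest untreated value, and wild type livers differed by -0.25. Akt2 was the 1 of 14 tested insulin signalling genes under an unadjusted p of 0.05, and 11 of the 14 were negative (median -0.10), with a median of -0.05 without untreated mouse 1. Wild type livers also had 11 of 14 negative (median -0.15). Glycolytic enzymes had 8 positive and 10 negative members of 18 tested, with 0 under an unadjusted p of 0.05. Of 34 tested nuclear-encoded subunits of complex I, the respiratory target of metformin, 20 were positive and 14 negative (median 0.03), with Ndufs5 higher (0.13 ± 0.06) and Ndufs7 lower (-0.21 ± 0.08). Among wild type livers 26 of the 34 were positive and 7 were higher at an unadjusted p under 0.05 (median 0.09). Of 13 listed mitochondrial mRNAs 7 were tested, and 6 of these were positive, with 0 under an unadjusted p of 0.05. Their median was 0.16, 0.09 without untreated mouse 1 and 0.06 with the GC correction. The negative one, mt-Co2 (-0.57), was at 8.57 FPKM in untreated mouse 3. Without that mouse its ratio of mean FPKM + 1 was -0.08 on the log2 scale. The mRNA mt-Co1 is listed at 0 in all 10 livers, which says nothing of its expression.

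Endoplasmic reticulum folding genes were lower in treated livers on balance, and 1 untreated liver was high in most of them. Their promoters are shown because the unfolded protein response acts on a shared element in this group, the ER stress response element, in which a CCAAT box is spaced from CCACG. Capitals mark CCAAT followed after 9 free bases by CCACG, or on the other strand CGTGG followed after 9 by ATTGG, in the 250 bases before the start of 3 genes from RefSeq, GRCm38.p6, all transcribed from the + strand. Derl3 is at chr10:75893148-75893397, Pdia6 at chr12:17266339-17266588 and Creld2 at chr15:88819396-88819645.
Derl3: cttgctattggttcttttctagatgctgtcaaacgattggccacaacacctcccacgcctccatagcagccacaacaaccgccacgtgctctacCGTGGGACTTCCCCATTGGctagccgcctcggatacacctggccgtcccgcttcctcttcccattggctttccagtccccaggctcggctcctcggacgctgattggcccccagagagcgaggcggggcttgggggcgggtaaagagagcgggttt
Pdia6: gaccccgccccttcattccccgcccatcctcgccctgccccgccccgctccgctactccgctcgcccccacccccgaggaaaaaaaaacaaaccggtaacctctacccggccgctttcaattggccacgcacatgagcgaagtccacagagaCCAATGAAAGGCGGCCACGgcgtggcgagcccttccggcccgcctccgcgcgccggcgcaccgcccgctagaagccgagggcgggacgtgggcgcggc
Creld2: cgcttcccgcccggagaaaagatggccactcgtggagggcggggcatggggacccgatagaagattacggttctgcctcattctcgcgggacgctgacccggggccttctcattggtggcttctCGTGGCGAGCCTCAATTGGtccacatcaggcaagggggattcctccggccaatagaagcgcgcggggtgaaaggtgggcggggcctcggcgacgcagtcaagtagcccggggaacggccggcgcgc
The match spans -156 to -138 from the gene start in Derl3, -98 to -80 in Pdia6 and -126 to -108 in Creld2. Searched on both strands, it occurs in 39 of 32851 promoters of 300 bases (0.119%) and in 9 of the 21 listed folding genes with an entry.

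Derl3, which helps to extract misfolded proteins, stood at 2.7, 3.1, 13.3, 3.45 and 29.2 FPKM in untreated and 3.57, 3.71, 2.25, 2.08 and 1.05 FPKM in treated livers (-1.21 ± 0.62). Pdia6, a disulfide isomerase, was at 159, 152, 195, 167 and 296 FPKM and 162, 157, 128, 144 and 122 FPKM (-0.40 ± 0.19). Creld2, another chaperone-like protein, was at 21.7, 16.4, 18.5, 18.5 and 174 FPKM and 16.6, 32.8, 19.7, 13.2 and 18.8 FPKM (-0.59 ± 0.69). Untreated mouse 5 was the highest liver in all 3. Sdf2l1, a gene of the folding list whose promoter lacks the match, was at 33.3, 35.3, 56.3, 35.2 and 139 FPKM and 37.7, 32.8, 21.7, 22.9 and 22.4 FPKM (-0.89 ± 0.38, limma adjusted p = 0.54). Hspa5, the central chaperone BiP, was at 225, 204, 167, 239.8 and 684 FPKM and 196, 280.1, 199, 218 and 244 FPKM (-0.22 ± 0.43). Of 23 tested folding genes 16 were negative (median -0.18), with Sdf2l1 and Pdia6 lower at an unadjusted p under 0.05. With the GC correction the median was -0.21 and 1 was lower. Without untreated mouse 5 the median was -0.02 and 0 were lower. The 9 genes with the motif were all lower (median -0.31), and 6 of the 12 without it were (median -0.04). Without untreated mouse 5, 7 of 9 and 7 of 12 were lower (medians -0.02 and -0.04). The part of the element in these differences was not tested. In wild type livers the folding genes had a median of -0.40, and untreated wild type mice 2 and 4 averaged 7.20 and 6.66 on the log2(FPKM + 1) scale, where untreated Ncoa5+/- mouse 5 had 6.93 and the treated livers of both genotypes 5.82 to 6.31.

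Other stress and inflammation lists leaned to lower values, mostly with few members under an unadjusted p of 0.05. Interferon-stimulated genes had 20 of 21 negative members (median -0.15), with Mx2, an antiviral GTPase, the 1 lower at that level (-0.29 ± 0.13). Without untreated mouse 1, in which they averaged 4.33 on the log2(FPKM + 1) scale against 3.66 to 3.86 in the other untreated livers, 13 of 21 were negative (median -0.07). Wild type livers had 20 of 21 negative too (median -0.22). Acute phase genes had 18 of 20 negative (median -0.17) and 0 under an unadjusted p of 0.05, and without untreated mouse 2 or with array weights 15 and 14 were negative (medians -0.08 and -0.09). NF-kB target genes had 13 of 17 negative (median -0.10) and 0 under that level. Secreted genes linked with senescence had 12 of 14 negative (median -0.11, and -0.05 without treated mouse 2), with Vegfa lower (-0.31 ± 0.12). Fetal liver and tumour markers had 9 of 10 negative (median -0.15) and 0 under that level, and the median was -0.06 without untreated mouse 2 and -0.05 without untreated mouse 3. In wild type livers 13 of 20 acute phase and 16 of 17 NF-kB genes were negative (medians -0.08 and -0.22). Among the secreted genes 11 of 14 were, and among the fetal and tumour markers 3 of 10 (medians -0.20 and 0.08). Immediate early genes had 14 of 18 negative (median -0.19), and 10 of 18 without untreated mouse 2 (median -0.04). They were negative in 18 of 18 in wild type livers (median -0.75), where untreated mouse 2 averaged 5.2 on the log2(FPKM + 1) scale against 2.35 to 3.13 in the other untreated and 2.18 to 2.49 in the treated livers. ATF4 targets (7 positive, 12 negative), heat shock genes (4 and 9), circadian clock genes (6 and 9) and the 10 tested S, G2 and M phase genes (3 and 7) each had at most 1 member in a direction under an unadjusted p of 0.05, among them Mcm7, a subunit of the replication helicase (0.19 ± 0.08).

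Macrophage and endothelial markers were lower in untreated mouse 2 than in the other livers, and the higher medians of treated livers shrank without it. Of 17 tested Kupffer cell and macrophage markers 16 were positive (median 0.26), with Mrc1, the mannose receptor, the 1 higher at an unadjusted p under 0.05. Mrc1 stood at 8.67, 4.1, 7.27, 9.23 and 10.2 FPKM in untreated and 10.2, 11, 10.3, 9.4 and 11.4 FPKM in treated livers (0.42 ± 0.17). Of 17 endothelial markers 13 were positive (median 0.15), with Fcgr2b, a sinusoidal Fc receptor, at 38.1, 15, 30, 34.4 and 33.2 FPKM and 43, 41.7, 41, 31.8 and 38 FPKM (0.42 ± 0.20). Clec4g, a sinusoidal lectin, was at 64, 24.2, 54.2, 64.4 and 65.2 FPKM and 68.2, 67.8, 65.2, 63.5 and 64.8 FPKM. Untreated mouse 2 was the lowest liver for all 3 genes. It averaged 2.80 over the macrophage and 2.68 over the endothelial markers on the log2(FPKM + 1) scale, where the other 9 livers had 3.35 to 4.13 and 3.34 to 3.54. Without it the medians were 0.04 and 0.03. The summed FPKM of the 17 tested macrophage markers was 199 to 539 in untreated and 344 to 488 in treated livers. That of the 17 endothelial markers was 129.6 to 263 and 237 to 271. The same mouse had the highest periportal mean, and the part of its cell makeup in that result was not tested.

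Stellate cell and matrix genes went both ways. Reln, reelin, made by stellate and lymphatic cells, stood at 12.1, 7.48, 12.1, 11 and 9.49 FPKM in untreated and 14.1, 13.6, 13.8, 13.3 and 13.4 FPKM in treated livers (0.37 ± 0.12), without overlap. Dcn, the proteoglycan decorin, was higher (0.36 ± 0.13), and Tagln, a smooth muscle actin-binding protein (-0.42 ± 0.18), and Fn1, fibronectin (-0.19 ± 0.07), were lower at an unadjusted p under 0.05. Of 18 tested members 8 were positive and 10 negative. Neutrophil (2 of 12 tested), lymphocyte (4 of 20), cholangiocyte (5 of 11), adipocyte (2 of 7), exocrine pancreas (1 of 13) and striated muscle (0 of 8) markers were mostly below the level for testing, and Ucp1, Lep, Clps and Amy2b are listed at 0 in all 10. Of the hepatocyte markers, Alb, Apoa1, Ttr, Serpina1a and Serpina1c are listed at 0 in all 10 livers, which says nothing of their expression, and the 7 tested ones had 4 positive and 3 negative differences. Erythroid genes, a readout of blood, had 6 of 7 positive (median 0.25, and 0.09 without treated mouse 3).

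**Figure D4:**
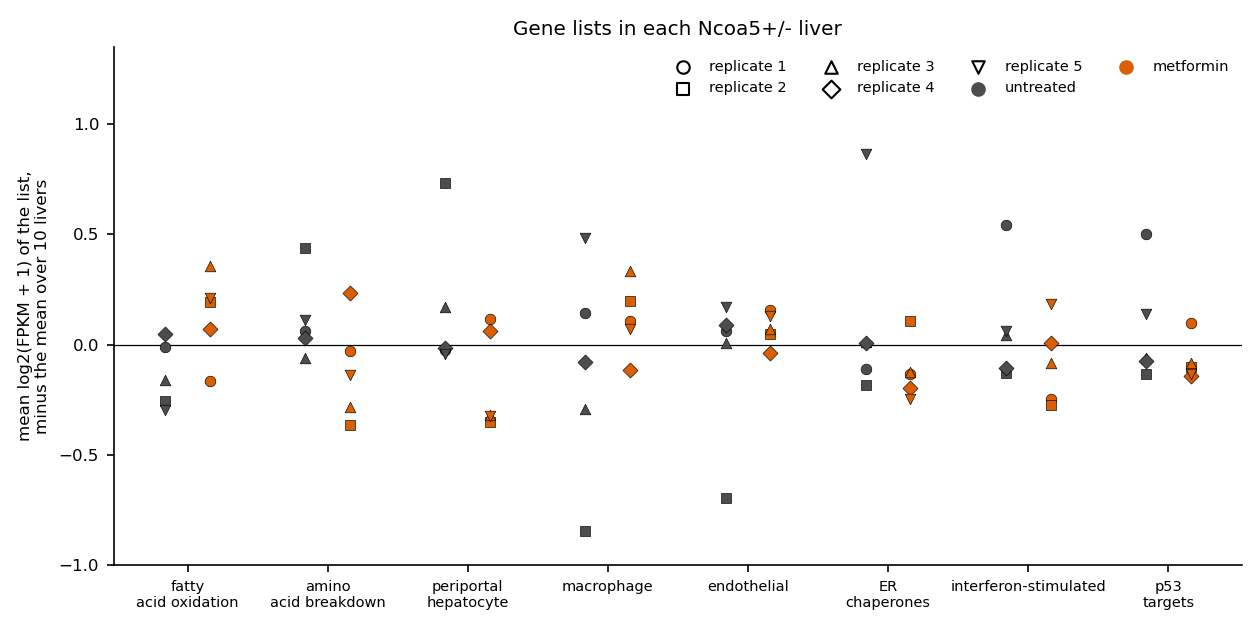
Mean log2(FPKM + 1) of 8 gene lists in each Ncoa5+/- liver minus the mean over the 10 livers, with grey for untreated, orange for metformin and 1 symbol per mouse number. Untreated mouse 2 stands apart for macrophage, endothelial and periportal genes, untreated mouse 5 for endoplasmic reticulum folding genes and untreated mouse 1 for p53 targets.

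Drug-metabolizing and redox genes held single differences in both directions. Cyp3a11, the main mouse relative of human CYP3A4, stood at 1716, 1239.5, 1606, 1379 and 1436 FPKM in untreated and 2208, 1888, 1804, 1662 and 2111 FPKM in treated livers (0.39 ± 0.10), with an overlap of 1 treated value, and differed by 0.32 in wild type livers. Cyp3a25 was higher as well (0.30 ± 0.12), and of 22 tested P450 genes 11 were positive and 11 negative (median -0.01), with 3 higher and 0 lower at an unadjusted p under 0.05. With the GC correction 1 P450 gene was higher and 1 lower. Gsta1, a glutathione transferase, was at 100.2, 72.7, 54, 66.5 and 52.2 FPKM and 41.6, 32.8, 30.7, 58.3 and 34.4 FPKM (-0.79 ± 0.25), and at -1.02 in wild type livers. Gsta2, its close relative, differed by -0.53 ± 0.22; reads of these similar genes can be shared, so their values are uncertain. Keap1, the adaptor that keeps NRF2 low, was at 27.5, 29.1, 28, 28.7 and 27.3 FPKM and 25.5, 24.4, 25, 26.1 and 25.8 FPKM (-0.14 ± 0.05), a small difference without overlap. Mgst1, a membrane-bound glutathione transferase, was higher (0.30 ± 0.10). In all, 28 NRF2 and glutathione genes had 16 positive and 12 negative members.

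Elovl3, a fatty acid elongase with male-biased and clock-controlled expression, stood at 37.3, 55.9, 80.3, 39.4 and 34.1 FPKM in untreated and 79.2, 63.1, 63.2, 121 and 110.3 FPKM in treated livers (0.83 ± 0.22), and differed by 0.68 in wild type livers. Cyp4a12a, a male-biased hydroxylase, was higher too (0.61 ± 0.22), as was Jak2, the kinase of the growth hormone receptor (0.16 ± 0.06), while Igfals, the carrier subunit of IGF-1, was lower (-0.22 ± 0.10), with an interaction of -0.36 ± 0.15. Of 22 tested genes of the growth hormone axis 15 were positive (median 0.14, and 0.07 without treated mouse 3). At an unadjusted p under 0.05, 4 were higher and 1 lower, and with the GC correction 3 and 0. Psmd11, a proteasome lid subunit, was at 42.6, 44, 49.8, 50.5 and 47.1 FPKM in untreated and 55.6, 51.2, 51.7, 60.5 and 57.9 FPKM in treated livers (0.24 ± 0.06), without overlap. It and Psmd13 (0.24 ± 0.10) were the 2 of 30 proteasome genes higher at an unadjusted p under 0.05, and 19 of the 30 were positive. Among 22 lysosome and autophagy genes Wipi1, an autophagosome protein, was higher (0.27 ± 0.11) and Tfeb, the transcription factor of lysosomal genes, lower without overlap (-0.25 ± 0.10), with 11 positive and 11 negative members.

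The authors' deposited table for these 10 mice marks 54 loci as higher (0.381%) and 119 as lower (0.84%) in treated livers. Of its 173 marked loci 109 could be matched to a tested locus by name and position, 39 higher and 70 lower in the authors' deposited table. Of the 109, 108 had the same sign in limma, which read the same 10 livers and so is no independent check. An unadjusted limma p under 0.05 was found for 46, and 2 had groups without overlap, Slc22a5 and Gas6. Over all tested loci these shares were 8.83% and 1.57%, and the 109 were marked for their differences in these livers. Gas6, a ligand of TAM receptors, stood at 58, 42.9, 31.9, 34.4 and 33 FPKM in untreated and 25.1, 23.7, 22.9, 29.8 and 31.7 FPKM in treated livers (-0.55 ± 0.18). For 31 of the 109, leaving out 1 mouse moved the ratio of group means by more than 1.5-fold, 24 lower and 7 higher. Of 39 that exceed 2-fold in the authors' deposited table, 24 moved by that much. Untreated mice 1 and 2 were the mouse concerned for 8 and 7 of the 31.

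Single livers carried several of the largest ratios. Tceanc2 has a log2 fold change of 6.87 in the authors' deposited table, and its ratio of means went from 6.33 to 0.34 on the log2 scale without treated mouse 1, which had 4008 FPKM. Tff3, a mucosal peptide, has -2.57 in the authors' deposited table and went from -2.40 to -0.02 without untreated mouse 2 (164 FPKM). Creld2 has -1.28 in the authors' deposited table and went from -1.26 to 0.10 without untreated mouse 5. Nr4a1, an immediate early nuclear receptor, has 1.74 in the authors' deposited table and went from 1.27 to -0.26 without treated mouse 4. Fgf21 has 2.39 in the authors' deposited table and went from 1.83 to 1.24 without treated mouse 2. Slc16a5, a monocarboxylate transporter relative, has -1.22 in the authors' deposited table and went from -1.23 to -1.0 without untreated mouse 1. Txnip, a glucose-responsive inhibitor of glucose uptake, is marked at 0.78 in the authors' deposited table and stood at 34.6, 32.1, 63.3, 56.9 and 32.3 FPKM and 62.5, 74.5, 107, 87.1 and 41.3 FPKM (0.75 ± 0.27).

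**Figure D5:**
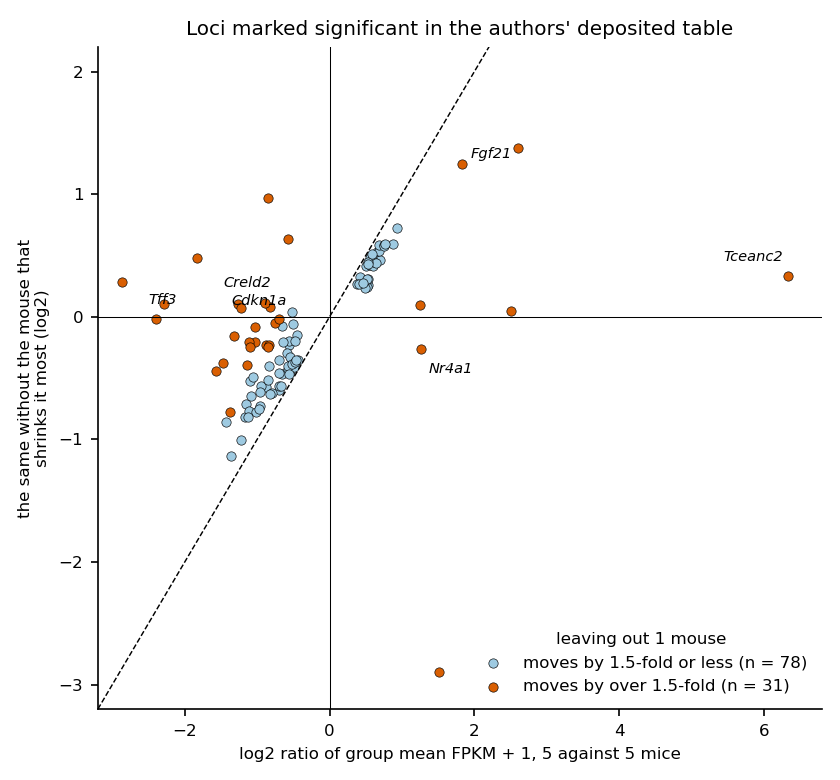
Log2 ratio of group mean FPKM + 1, treated over untreated, for 109 loci marked significant in the authors' deposited table (x axis), and the same after leaving out the mouse that shrinks it most (y axis). For 78 loci the ratio moved by at most 1.5-fold and for 31 by more, and Tff3, at -0.02 on the y axis, and Creld2, at 0.10, are among the latter.

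Wild type livers were compared in the same way to ask where Ncoa5+/- livers differed from them. Metformin gave 0 loci past the adjusted threshold in wild type livers too (0%; smallest adjusted p = 0.155), with 1070 (9.35%) at an unadjusted p under 0.05, 549 higher (4.8%) and 521 lower (4.55%). The interaction of genotype and metformin, fitted over all 17 livers, had 0 loci past the adjusted threshold (0%; smallest adjusted p = 0.991) and 319 (2.79%) at an unadjusted p under 0.05. No gene is thus shown to respond differently in the 2 genotypes. Of the genes named here, those with an unadjusted interaction p under 0.05 were Tmem56, Decr1, Plin2, Igfals, Mus81 and Prkab1, each given above. Among gene lists, cytosolic ribosomal protein genes had 44 of 73 positive members in Ncoa5+/- livers (median 0.04, 1 higher at an unadjusted p under 0.05) and 69 of 73 in wild type livers (median 0.29, 47 higher), and 25 of the 73 had an unadjusted interaction p under 0.05. Rpl38 stood at 1019, 1525, 1284, 1180.0 and 1128 FPKM in untreated and 1412, 1406, 1819, 1280.0 and 1357 FPKM in treated Ncoa5+/- livers (0.25 ± 0.13), and at 1023, 1109.9, 1111 and 1202 FPKM and 1813, 2120.3 and 1401 FPKM in wild type livers (0.66). The Ncoa5+/- ribosomal list moved with scaling and mice left out between 34 and 63 positive members.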

How the data were processed

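Liver RNA of 25 mice was sequenced, and the 17 mice aged 39 weeks were analysed here. Per the submitters' processing notes, reads were trimmed with Trimmomatic 0.33, aligned with TopHat2 to GRCm38.p5 and quantified with Cufflinks and Cuffnorm, with no versions given for the last 3. The authors deposited 1 FPKM value per locus and mouse, and how Cuffnorm scaled the libraries is not given in the sources used here. The authors' deposited comparison table holds group FPKM, log2 fold changes, p-values and q-values, and was read as given, with positive turned to mean higher in treated mice.

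Of 46052 loci, those with a mean of at least 1 FPKM over the 17 livers were analysed as log2(FPKM + 1). Loci at 0 in every mouse of a group but expressed in another (14) were left out. Limma 3.58.1 in R 4.3.3 (lmFit, eBayes with a trend) fitted 4 groups with 13 residual degrees of freedom, and was checked on simulated data. Python 3.11.15, numpy 2.4.6 and pandas 2.3.3 did the rest, with exact permutation tests for Ncoa5 and Cdkn1a. The GC correction removed, in each library, the median deviation within 20 bins of transcript GC content, and was added after the data were seen. Other alternatives were pseudocounts of 0.1 and 5, other filters, quantile normalization, a median shift, no trend, array weights, the compared groups alone, failed estimates kept at 0 and leaving out mice.

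The groups compared and the 45 gene lists (906 genes, 714 tested) were chosen with earlier results of these data known, and lists are described by counts and medians, with no test. Genes were named by a rule: Ncoa5 and Cdkn1a, the 10 loci with the smallest p in each direction, the 2 smallest p of each list, the 10 largest ratios of the authors' table in each direction, the p53, transport, glucose output and AMPK lists, and the 5 loci most like Cdkn1a. Part of these are given with values, some are not reported here, and others were named after their values were seen. Each library is taken as 1 mouse. Joined loci were read under 1 symbol (421 of those tested), and overlapping or similar genes can share reads. The 20-week cohort was not used here.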

Additional observations from a re-analysis of the deposited data

Results flagged for a closer look

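In groups of 5 mice, a liver was counted as standing apart when its gap to the nearest other liver took more than 0.71 of the range of its group. Over the 102 genes with values in the text this was so in 20 of 204 groups. Although chance gives about 1 in 20 for a gene taken at random, these genes were in part chosen for large ratios or after their values were seen and many vary together, so no chance count applies to them. Untreated mouse 1 stood apart in 5 genes: Cdkn1a (117.1 FPKM), Phlda3 (45.1), Eda2r (6.239) and Mdm2 (22.11), all high, and Akt2 (47.41), low. Untreated mouse 2 stood apart in 6: Plxnb1 (18.62 FPKM), Gls2 (476.9), Sds (343), Aldh1b1 (97.69) and Tff3 (164), high, and Clec4g (24.16), low. Untreated mouse 5 stood apart in 5: Sdf2l1 (139.1 FPKM), Creld2 (174.4) and Hspa5 (684), high, and Cdk2 (4.677) and Ephx2 (223.2), low. Among treated livers, mouse 4 was high in Srebf1 (139.2 FPKM) and Nr4a1 (21.98), mouse 1 in Tceanc2 (4008) and mouse 3 in Rpl38 (1819).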

How the results depend on the processing

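Of 102 genes with values, 9 changed the sign of their log2 fold change under at least 1 of 22 alternatives, and 1 crossed the threshold: Evi5 (adjusted p = 0.0413) when failed estimates were kept at 0. Ncoa5 gave 0.00208 with array weights, 0.0172 with the GC correction and -0.132 to 0.0125 with single mice left out, also in its permutation test. Pck1 gave 0.0564 without the libraries whose 50 highest loci take over 70%. Leaving out single mice gave -0.291 to 0.0843 for Ccng1, -0.163 to 0.205 for Eda2r, -0.117 to 0.0727 for Mdm2, -0.461 to 0.0135 for Pck1, -0.789 to 0.0438 for Creld2, -0.385 to 0.122 for Hspa5, -1.32 to 0.0236 for Tff3 and -0.23 to 0.72 for Nr4a1; those ranges come from fewer mice. Of the medians of 38 lists, 1 left the spread of its list, that of macrophage markers without untreated mouse 2 (0.04).

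The number of loci past the adjusted threshold in Ncoa5+/- livers was 0 except with failed estimates kept at 0, which gave 4: Ahsg, C3 and Cyp2e1, each listed at 0 in a whole group, and Evi5. For wild type livers it was 2 with no filter, 2 with failed estimates kept and 0 to 1 with single mice left out (1 without treated Ncoa5+/- mouse 3 or 4, or treated wild type mouse 1). For the interaction it was 2 with no filter, 5 with failed estimates kept and 0 to 1 with single mice left out (1 without treated wild type mouse 1). At an unadjusted p under 0.05 Ncoa5+/- livers had 630 loci without treated mouse 3 and 1140 without treated mouse 4, 860 without the 2 libraries of over 70%, 652 with the GC correction and 1694 with no filter (of 25323). The smallest adjusted p among the other alternatives ranged from 0.0626 (quantile normalization) to 0.699 (GC correction). No paired analysis was possible because the replicate numbers only follow the order of deposit. Depth is unknown, so what it limits cannot be stated.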
